A study of Mus musculus with 479 samples.

Results

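Genes of primary cilium transport and of cystic kidney disease were followed through 4 mouse tissues: 11 subunits of the intraflagellar transport (IFT) B complex, 3 of the IFT-A complex, both motor subunits of kinesin-2, 10 genes of the BBSome and its helpers, 5 of the transition zone, inversin compartment and ciliary membrane, and the 3 polycystic disease genes Pkd1, Pkd2 and Pkhd1. These 34 genes were chosen by name, with earlier results of these data known. Counts of called members beside the share of all genes are therefore a description and no test. All 34 were found among the 24475 genes of each deposited table. Messenger RNA of hearts, kidneys, livers and lungs had been sequenced in 2 mouse lines. The groups were Dchs1 heterozygotes (Het, 1 altered copy of Dchs1) beside wild types (WT) from that line, and Fat4 Het beside Fat4 WT mice, all on the C57BL/6NTac background. The alleles were made by VelociGene targeting, and the design text names WT littermates as controls. Each of the 16 groups of line, genotype and tissue held 30 libraries, except the Dchs1 Het liver group with 29. The labels give no age, sex or litter, and they do not state that each library is a mouse of its own, so a p-value here covers the spread among libraries, which may be technical.

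The primary cilium is a single antenna-like projection that most cell types can form. IFT trains move along its microtubules: IFT-B trains are pulled outward by kinesin-2, and IFT-A works with dynein-2 on the way back and in the entry of membrane proteins. The BBSome is a coat-like adaptor that rides on IFT trains and carries membrane proteins out of the cilium, and the transition zone at the ciliary base acts as its gate. In kidney tubules and bile ducts, defects of these genes and of the polycystins cause cysts, while the airway cells of the lung use the same transport machinery to build many motile cilia per cell. Dchs1 and Fat4 are very large cadherins on facing cell membranes that bind each other, with known roles in planar cell polarity.

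RFX factors are the transcription factors best known for driving IFT and BBSome genes, and their binding motif was looked up in the promoters. RefSeq promoter windows (GRCm38.p6, 250 bases before to 50 after the start site) were at hand for 30 of the 34 genes. The full motif, GTNNCC and 3 bases on GNAAC, searched on both strands, stood in the windows of 6 of those 30 genes (20%), and in those of 2.49% of all 27025 genes with a window. Those members were Bbs1, Bbs4, Bbs7, Ift22, Ift57 and Nphp4, the last in 1 of its windows. The short motif GTTGCC, which a full motif can contain, stood in windows of 11 members (36.7%), and of 14.1% of all genes. The 250 bases before the start site are printed for 3 of them whose levels are taken up below, 5' to 3' on the gene's strand, with the full motif in capitals: Ift57 (chr16:49699044-49699293 on the plus strand), Bbs7 (chr3:36613390-36613639 on the minus strand) and Ift22 (chr5:136907900-136908149 on the plus strand).
Ift57: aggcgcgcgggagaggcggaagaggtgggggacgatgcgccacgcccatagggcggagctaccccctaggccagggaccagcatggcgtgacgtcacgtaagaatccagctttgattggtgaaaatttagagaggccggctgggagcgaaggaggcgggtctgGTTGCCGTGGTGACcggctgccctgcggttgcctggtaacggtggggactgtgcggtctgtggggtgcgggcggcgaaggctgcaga
Bbs7: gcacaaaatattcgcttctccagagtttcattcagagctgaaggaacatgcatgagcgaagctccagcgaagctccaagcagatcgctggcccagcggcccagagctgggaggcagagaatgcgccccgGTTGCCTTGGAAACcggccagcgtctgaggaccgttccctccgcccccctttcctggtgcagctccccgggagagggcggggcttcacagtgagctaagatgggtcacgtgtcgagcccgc
Ift22: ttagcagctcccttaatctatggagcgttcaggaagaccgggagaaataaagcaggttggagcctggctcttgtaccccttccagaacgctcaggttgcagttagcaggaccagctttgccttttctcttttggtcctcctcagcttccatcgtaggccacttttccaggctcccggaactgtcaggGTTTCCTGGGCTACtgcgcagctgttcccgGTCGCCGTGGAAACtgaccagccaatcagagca

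Ift57 held 1 full motif and Ift22 held 2, while the single Bbs7 site matched the motif on both strands at the same bases. A match is a description of the sequence and was not tested for binding.

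Libraries held 10720364 to 32282525 gene-assigned reads, with a median of 18978025. The targeted genes were lower in their Het tissues, Dchs1 by a log2 fold change of -1.24 to -1.10 over the 4 tissues of its line and Fat4 by -1.06 to -0.95 in its own. Summed marker levels set the tissues apart, with group medians of 24901 to 27307 TPM for cardiomyocyte genes in hearts, against at most 473 TPM elsewhere. Proximal tubule genes summed to at least 29802 TPM in kidneys and at most 12.9 TPM elsewhere, and hepatocyte genes to at least 82905 TPM in livers and at most 1641 TPM elsewhere. Multiciliated cell genes summed to medians of 523 to 678 TPM in lungs, and to at most 8.13 TPM in other tissues. The library numbers in the labels fell into separate stretches (a gap of over 2) in 7 of the 8 comparisons, and 9 Dchs1 lung libraries (3 Het and 6 WT) stood apart from the rest in their overall profile. In 9 of the 34 genes the gene body overlaps that of another protein-coding gene in RefSeq, among them Ift122 (Mbd4), Ift140 (Tmem204), Ift74 (Lrrc19), Invs (Tex10), Arl13b (Stx19), Cep290, Tmem67 and Pkd1 (Tsc2). The libraries kept strand, but whether reads were counted by strand is not given in the sources used here, so values of these genes could include reads of the partner.

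Across the WT tissues, the lung had the highest level of 16 of the 34 genes in the Dchs1 line, kidney of 11, liver of 5 and heart of 2, in CPM scaled by TMM over the 4 tissues. In the Fat4 line these numbers were 14, 11, 6 and 3, and 31 of the 34 genes had the same highest tissue in both lines. Liver was the lowest tissue for 18 genes (Dchs1) and 20 genes (Fat4), and heart for 12 and 10. The scale bears on the lung: in TPM, which is a share of all transcripts, lung was highest for 31 of the 34 genes in each line. The 20 most abundant genes took 65% of all TPM in Dchs1 WT hearts and 29.4% in lungs, and the median gene had a log2 difference, heart over lung, of -1.30 in TPM and -0.18 after TMM. Differences between tissues below are therefore on the TMM scale unless TPM is named, and TPM means serve to compare genes within a tissue. The libraries' coefficient of variation over members averaging at least 1 TPM had a median of 10.1 to 20.3% over the 8 WT groups.

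**Figure D1:**
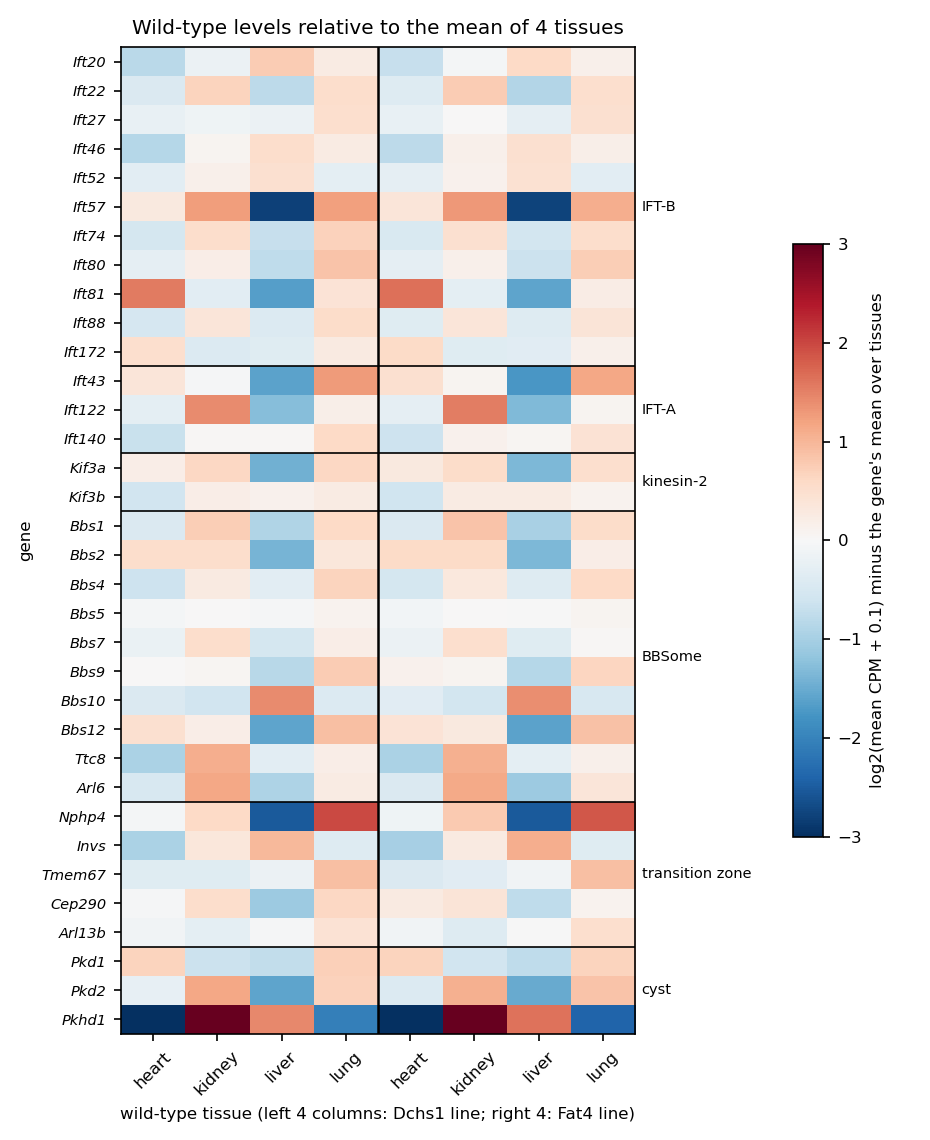
Mean level of each gene in WT tissues, as log2(CPM + 0.1) minus the gene's mean over the 4 tissues of its line, with colours cut at 3 on either side. Columns are tissues (n = 30 libraries each), Dchs1 line left and Fat4 line right, and rows are grouped by role. Ift57 was low in liver, Ift81 high in heart, Bbs10 high in liver and Pkhd1 high in kidney in both lines.

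A difference between tissues was called at an adjusted p under 0.05 (edgeR quasi-likelihood test) and a change of at least 2-fold. Background percentages give the share of all genes called in the same contrast, then those higher and those lower, over 16075 genes for Dchs1 and 16081 for Fat4. Lung over liver gave 18 higher and 3 lower for Dchs1 (background 58.2% in all, 35.1% and 23.1%) and 17 higher and 3 lower for Fat4 (background 58.3% in all, 34.8% and 23.5%). Kidney over liver gave 17 higher and 1 lower for Dchs1 (background 43.4% in all, 28.1% and 15.3%) and 16 higher and 1 lower for Fat4 (background 43.9% in all, 27.9% and 16%). Both tissues thus had more of these genes above liver than below it, in contrasts where calls over all genes leaned the same way. Heart over lung gave 1 higher and 12 lower for Dchs1 (background 44.2% in all, 17.3% and 26.9%) and 1 higher and 9 lower for Fat4 (background 44.7% in all, 17.8% and 26.9%), Ift81 being the gene higher in heart in both lines. Heart over kidney gave 2 higher and 9 lower for Dchs1 (background 42.6% in all, 19.2% and 23.4%) and 2 higher and 9 lower for Fat4 (background 43.3% in all, 19.8% and 23.5%), and here Ift81 and Pkd1 were the higher ones. Heart over liver gave 10 higher and 5 lower for Dchs1 (background 52.1% in all, 29.4% and 22.7%) and 12 higher and 5 lower for Fat4 (background 52.2% in all, 29.4% and 22.8%). Kidney and lung had the fewest called members of the 6 pairs: kidney over lung gave 2 higher and 4 lower for Dchs1 (background 45.2% in all, 19.8% and 25.3%) and 2 higher and 4 lower for Fat4 (background 45.8% in all, 20.6% and 25.2%). On the TPM scale heart over lung gave 0 higher and 31 lower (background 5.38% and 62.7%) for Dchs1 and 0 higher and 31 lower (background 5.18% and 64.6%) for Fat4, and kidney over lung 1 higher and 20 lower (background 8.43% and 45.2%) and 1 higher and 14 lower (background 9.18% and 42.9%).

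Among the IFT-B genes, Ift20, whose protein also serves at the Golgi, had the highest transcript level per length in every tissue but the heart. It averaged 17.3, 36.3, 51.4 and 101 TPM in hearts, kidneys, livers and lungs from the Dchs1 line, and 17.01, 39.2, 44.2 and 91.6 TPM from the Fat4 line. Ift22, a small GTPase-like subunit, averaged 4.55, 13.5, 3.58 and 25.3 TPM in the Dchs1 tissues and 4.41, 14.7, 3.303 and 24.7 TPM in the Fat4 tissues. Ift27, the GTPase subunit that links IFT-B to BBSome exit, averaged 6.11, 8.81, 6.42 and 28.9 TPM in the Dchs1 tissues and 5.53, 9.77, 5.74 and 27.1 TPM in the Fat4 tissues. In liver and lung, Ift20 was several-fold above both GTPase genes. The core subunit Ift46 averaged 3.83, 9.99, 10.6 and 32.8 TPM in the Dchs1 tissues and 3.79, 10.8, 9.87 and 29.8 TPM in the Fat4 tissues. Its partner Ift52 averaged 10.9, 20.8, 19.2 and 32.4 TPM in the Dchs1 tissues and 11.02, 21.9, 19.6 and 32.1 TPM in the Fat4 tissues. Liver was the highest tissue of Ift20, Ift46 and Ift52 on the TMM scale in both lines, where it was the lowest for most other members. The log2 difference of heart over liver was -1.39 ± 0.049 (Dchs1 line) and -1.26 ± 0.039 (Fat4 line) for Ift46, and no tissue pair reached 2-fold for Ift52.

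Ift57, a peripheral IFT-B subunit, was low in liver. It averaged 3.93, 10.4, 0.423 and 23.7 TPM in the Dchs1 tissues and 4.02, 11.6, 0.434 and 22.99 TPM in the Fat4 tissues. The log2 difference of kidney over liver was 4.17 ± 0.088 (Dchs1 line) and 4.23 ± 0.069 (Fat4 line), and that of heart over liver 3.21 ± 0.089 (Dchs1 line) and 3.29 ± 0.072 (Fat4 line). Ift74 and Ift81 form the tubulin-binding pair of the complex, yet their tissue order differed. Ift74 averaged 3.76, 10.6, 3.302 and 25.05 TPM in the Dchs1 tissues and 3.68, 10.5, 3.64 and 21.9 TPM in the Fat4 tissues. Ift81 averaged 19.8, 7.13, 2.04 and 24.99 TPM in the Dchs1 tissues and 19.5, 7.46, 2.13 and 21.3 TPM in the Fat4 tissues. Ift81 was higher in heart than in kidney by a log2 difference of 1.90 ± 0.055 (Dchs1 line) and 1.94 ± 0.043 (Fat4 line), where Ift74 was lower in heart, at -1.05 ± 0.075 (Dchs1 line) and -0.94 ± 0.049 (Fat4 line). Heart also exceeded lung for Ift81 on the TMM scale (1.16 and 1.43 in the Dchs1 and Fat4 lines), an order that turned round in TPM, while heart stayed above kidney on both scales.

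The remaining IFT-B genes were Ift80, Ift88 and Ift172. Ift80 averaged 1.91, 3.59, 1.35 and 12.3 TPM in the Dchs1 tissues and 1.98, 3.95, 1.603 and 11.97 TPM in the Fat4 tissues. Ift88, the subunit altered in a classic polycystic kidney mouse, averaged 2.98, 7.48, 3.21 and 18.03 TPM in the Dchs1 tissues and 3.28, 8.07, 3.42 and 16.6 TPM in the Fat4 tissues. Ift172, the largest IFT-B protein, averaged 8.76, 6.39, 4.88 and 22.02 TPM in the Dchs1 tissues and 9.54, 7.49, 5.39 and 21.5 TPM in the Fat4 tissues. On the TMM scale Ift172 was highest in heart and reached 2-fold in no tissue pair, while Ift80 and Ift88 were highest in lung. Of the IFT-A genes, Ift43 was low in liver. Ift122 was highest in kidney on both scales, with a smaller lead over lung in TPM. Ift43 averaged 17.4, 18.1, 4.37 and 93.8 TPM in the Dchs1 tissues and 17.4, 19.6, 3.82 and 83.998 TPM in the Fat4 tissues. Ift122 averaged 2.53, 11.5, 1.28 and 10.3 TPM in the Dchs1 tissues and 2.55, 13.5, 1.28 and 9.78 TPM in the Fat4 tissues, and its log2 difference of kidney over lung was 1.24 ± 0.051 (Dchs1 line) and 1.47 ± 0.040 (Fat4 line). Ift140 averaged 1.203, 2.69, 2.01 and 8.54 TPM in the Dchs1 tissues and 1.28, 3.22, 2.18 and 7.995 TPM in the Fat4 tissues, with its highest TMM level in lung.

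The kinesin-2 motor is a dimer of Kif3a and Kif3b, and Kif3a was low in liver. Kif3a averaged 4.38, 7.98, 1.38 and 16.4 TPM in the Dchs1 tissues and 4.503, 8.04, 1.502 and 15.8 TPM in the Fat4 tissues. Kif3b averaged 3.03, 7.18, 5.04 and 15.98 TPM in the Dchs1 tissues and 2.99, 7.96, 5.66 and 14.7 TPM in the Fat4 tissues. The log2 difference of kidney over liver was 2.08 ± 0.068 (Dchs1 line) and 1.93 ± 0.046 (Fat4 line) for Kif3a, and 0.081 and -0.0026 in the Dchs1 and Fat4 lines for Kif3b.

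Liver was the lowest TMM tissue of Bbs1, Bbs2, Bbs7 and Bbs9 among the BBSome subunits, while heart was the lowest of Bbs4, Bbs5 and Ttc8. Bbs1 averaged 0.789, 2.48, 0.581 and 4.82 TPM in the Dchs1 tissues and 0.816, 3.03, 0.595 and 4.93 TPM in the Fat4 tissues. Bbs2 averaged 5.45, 7.55, 1.42 and 13.9 TPM in the Dchs1 tissues and 5.81, 8.69, 1.599 and 13.5 TPM in the Fat4 tissues. Bbs2 was lower in liver than in the other 3 tissues by at least 2-fold in both lines. Bbs4 averaged 1.82, 4.72, 2.29 and 13.02 TPM in the Dchs1 tissues and 1.92, 5.18, 2.23 and 12.6 TPM in the Fat4 tissues. Bbs5 averaged 3.04, 4.36, 3.13 and 9.86 TPM in the Dchs1 tissues and 2.91, 4.63, 3.21 and 9.68 TPM in the Fat4 tissues. No tissue pair differed 2-fold for Bbs5 in either line. Bbs7 averaged 2.51, 5.64, 1.97 and 9.54 TPM in the Dchs1 tissues and 2.4997, 6.09, 2.33 and 8.79 TPM in the Fat4 tissues. Bbs9, a scaffold subunit, averaged 2.82, 3.94, 1.54 and 13.7 TPM in the Dchs1 tissues and 2.98, 4.31, 1.57 and 12.8 TPM in the Fat4 tissues. The called tissue differences of Bbs7 and Bbs9 were all against liver. Ttc8, also known as BBS8, averaged 1.503, 8.64, 2.38 and 9.91 TPM in the Dchs1 tissues and 1.52, 9.44, 2.58 and 9.91 TPM in the Fat4 tissues. Arl6, the GTPase that recruits the BBSome to membranes, averaged 2.93, 12.7, 2.13 and 14.3 TPM in the Dchs1 tissues and 3.01, 13.6, 1.99 and 15.8 TPM in the Fat4 tissues. Kidney was the highest TMM tissue of both, with a log2 difference of kidney over liver of 2.13 ± 0.072 (Dchs1 line) and 2.27 ± 0.054 (Fat4 line) for Arl6 and of heart over kidney of -2.08 ± 0.069 (Dchs1 line) and -2.05 ± 0.051 (Fat4 line) for Ttc8. The chaperonin-like genes Bbs10 and Bbs12, which help to assemble the BBSome, had opposite liver levels. Bbs10 averaged 1.03, 1.26, 3.81 and 3.02 TPM in the Dchs1 tissues and 1.097, 1.41, 3.96 and 2.97 TPM in the Fat4 tissues. Bbs12 averaged 0.918, 1.03, 0.191 and 3.63 TPM in the Dchs1 tissues and 0.911, 1.24, 0.204 and 3.79 TPM in the Fat4 tissues. The log2 difference of heart over liver was -1.88 ± 0.063 (Dchs1 line) and -1.76 ± 0.060 (Fat4 line) for Bbs10, but 2.29 ± 0.11 (Dchs1 line) and 2.23 ± 0.11 (Fat4 line) for Bbs12.

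In the transition zone and inversin group, Nphp4 was the lowest member per length in kidney and liver, and Invs was highest in liver on the TMM scale. Nphp4 averaged 0.132, 0.297, 0.006101 and 1.76 TPM in the Dchs1 tissues and 0.129, 0.391, 0.00799 and 1.73 TPM in the Fat4 tissues. Its liver level is close to none: livers held 11 Nphp4 reads over the 30 Dchs1 WT libraries and 14 over the 30 Fat4 WT libraries. Lung was its highest tissue, with a log2 difference of heart over lung of -2.20 ± 0.12 (Dchs1 line) and -2.15 ± 0.093 (Fat4 line). Invs, the inversin gene, averaged 1.05, 3.57, 4.11 and 4.601 TPM in the Dchs1 tissues and 1.001, 3.72, 4.64 and 4.83 TPM in the Fat4 tissues, and its log2 difference of lung over liver was -1.38 ± 0.055 (Dchs1 line) and -1.45 ± 0.041 (Fat4 line) on that scale. Its TPM mean was slightly higher in lung than in liver, so that order rests on the scale. Liver, the lowest tissue for Nphp4, was the highest for Invs on the TMM scale. Tmem67, or meckelin, averaged 1.38, 1.87, 1.57 and 9.803 TPM in the Dchs1 tissues and 1.28, 2.09, 1.72 and 9.94 TPM in the Fat4 tissues. Cep290, a transition zone scaffold, averaged 2.02, 4.04, 0.958 and 9.104 TPM in the Dchs1 tissues and 2.14, 3.45, 1.08 and 5.71 TPM in the Fat4 tissues. Arl13b, a GTPase of the ciliary membrane, averaged 3.66, 4.41, 3.85 and 15.8 TPM in the Dchs1 tissues and 3.57, 4.36, 4.04 and 16.7 TPM in the Fat4 tissues. Tmem67 was higher in lung than in every other tissue by at least 2-fold in both lines.

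The cyst disease genes differed from each other in their tissue levels. Pkd1, which encodes polycystin-1, averaged 6.97, 3.86, 2.69 and 21.6 TPM in the Dchs1 tissues and 7.69, 4.88, 3.07 and 23.7 TPM in the Fat4 tissues. Pkd2, the polycystin-2 channel, averaged 11.9, 43.4, 4.74 and 68.8 TPM in the Dchs1 tissues and 11.9, 48.9, 5.798 and 86.98 TPM in the Fat4 tissues. On the TMM scale Pkd1 was low in kidney and liver and high in heart and lung, with a log2 difference of heart over kidney of 1.30 ± 0.067 (Dchs1 line) and 1.24 ± 0.051 (Fat4 line). Pkd2 was high in kidney and lung instead, at -1.41 ± 0.071 (Dchs1 line) and -1.46 ± 0.043 (Fat4 line) for heart over kidney. Pkhd1, whose protein fibrocystin lies in tubule and bile duct cilia, averaged 0, 7.33, 0.4601 and 0.0943 TPM in the Dchs1 tissues and 0, 9.51, 0.56003 and 0.07395 TPM in the Fat4 tissues. No Pkhd1 read was found in any of the 30 WT hearts of either line, which allows up to 0.00491 CPM over the 610556923 reads of the Dchs1 hearts (3 counts, counting error only). Kidney was the highest and liver the second, with a log2 difference of kidney over liver of 3.55 ± 0.091 (Dchs1 line) and 3.59 ± 0.067 (Fat4 line).

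In Dchs1 Het hearts, 14 of the 32 members tested were higher than in WT hearts and 3 were lower at an adjusted p under 0.05 (edgeR quasi-likelihood test, Benjamini-Hochberg over 13304 genes), where 50.2% of all genes were called, 26.1% higher and 24.1% lower. The higher members were 6 IFT-B genes (Ift57, Ift74, Ift88, Ift27, Ift46 and Ift52), the IFT-A gene Ift122, 5 BBSome genes (Bbs4, Bbs9, Bbs2, Arl6 and Bbs5) and the transition zone genes Cep290 and Tmem67. Ift81, Ift20 and Bbs10 were lower. The log2 fold changes ran from 0.13 to 0.42 among the higher genes and from -0.20 to -0.15 among the lower ones. Kif3a, Kif3b, Pkd1 and Pkd2 did not pass, and Nphp4 and Pkhd1 had too few reads to be tested. In the longest stretch of library numbers (24 Het and 24 WT hearts) 14 members were higher and 3 lower, and in the 6 Het and 6 WT hearts outside it 6 were higher (Ift57, Ift74, Ift88, Ift27, Bbs9 and Bbs2) and none lower.

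Ift57 showed the strongest difference by p. It had 8.21, 9.37 and 13.6 CPM in Het hearts, against 5.98, 7.06 and 8.85 CPM in WT hearts (lowest, median and highest library). The log2 fold change was 0.42 ± 0.047 (SE, adjusted p = 4.21e-11), and 24 of 30 Het hearts lay above the highest WT heart. Bbs9 of the BBSome scaffold followed. Its libraries held 7.31, 8.58 and 9.699 CPM in Het hearts, against 5.67, 6.93 and 9.01 CPM in WT hearts, a log2 fold change of 0.30 ± 0.039 (adjusted p = 2.71e-09). All 30 Het hearts were above the WT median, and the ranges overlapped. Ift74, of the tubulin-binding pair, had 5.83, 7.71 and 9.24 CPM in Het hearts, against 4.05, 5.83 and 8.56 CPM in WT hearts. This was a log2 fold change of 0.38 ± 0.050 (adjusted p = 4.32e-09), with 29 of 30 Het hearts above the WT median. Its partner Ift81 went the other way, at -0.19 ± 0.037 (adjusted p = 1.65e-05), with 29.2, 35.8 and 44.6 CPM in Het hearts, against 33.2, 42.01 and 49.3 CPM in WT hearts. 28 of 30 Het hearts were below the WT median of Ift81.

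Bbs4 encodes a BBSome subunit that binds centriolar satellite proteins. Its levels were 3.34, 4.41 and 5.53 CPM in Het hearts, against 2.35, 3.44 and 4.36 CPM in WT hearts, for a log2 fold change of 0.40 ± 0.055 (adjusted p = 1.81e-08). In 18 of 30 Het hearts Bbs4 exceeded the highest WT heart. Bbs2, another subunit, had 11.6, 13.5 and 15.3 CPM in Het hearts, against 10.4, 11.7 and 13.6 CPM in WT hearts, or 0.20 ± 0.030 on the log2 scale (adjusted p = 8.48e-08). Ift88, the subunit of the classic polycystic mouse, had 6.83, 8.25 and 10.6 CPM in Het hearts, against 4.67, 6.504 and 9.86 CPM in WT hearts, or 0.32 ± 0.051 (adjusted p = 2.97e-07). Groups overlapped for both, although 29 of 30 Het hearts for Bbs2 and all 30 for Ift88 lay above the WT median. The remaining called members ran from 0.13 for Ift52 to 0.26 for Cep290 among those higher, and included Ift20 at -0.15 and Bbs10 at -0.20. The 15 members that did not pass lay between -0.13 and 0.11.

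Related genes in Dchs1 hearts were mixed. Of the other IFT subunits, 2 higher and 3 lower of 11 tested passed, among them the IFT-A genes Wdr19, higher at 0.45, and Wdr35, lower at -0.22. Ttc30b, at -0.36, shares sequence with its paralogs Ttc30a1 and Ttc30a2, so its value is uncertain. The other ciliary motor genes gave 3 higher and 0 lower of 6, all of dynein-2: Wdr34 at 0.42, Wdr60 at 0.18 and Dync2li1 at 0.16. Centriole and basal body genes gave 7 higher and 0 lower of 14, led by the appendage gene Odf2 at 0.48. Other transition zone genes gave 6 higher and 3 lower of 21, with Tctn1 at 0.25 and Cc2d2a at -0.34. Other trafficking genes gave 2 higher and 3 lower of 13, with the BBSome regulator Lztfl1 at 0.30, and other cyst genes 4 higher and 1 lower of 10. Hedgehog pathway genes, which signal through the cilium, gave 2 higher and 3 lower of 13, and RFX and ciliogenesis regulators 0 higher and 0 lower of 5. Fibroblast markers gave 1 higher and 4 lower of 6 and cardiomyocyte markers 0 higher and 3 lower of 8, with median summed levels of 658 TPM in Het and 643 TPM in WT hearts for the first list (range 383 to 899.5 and 493 to 816), and of 24901 and 26832 TPM for the second (range 21562 to 32099 and 23810.0 to 34239). Erythroid markers gave 0 higher and 3 lower of 5 (median log2 fold change -0.65), with 2668 TPM in Het and 3549.5 TPM in WT hearts (range 1106 to 17294 and 1617 to 22369). Their part in the result was not tested.

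**Figure D2:**
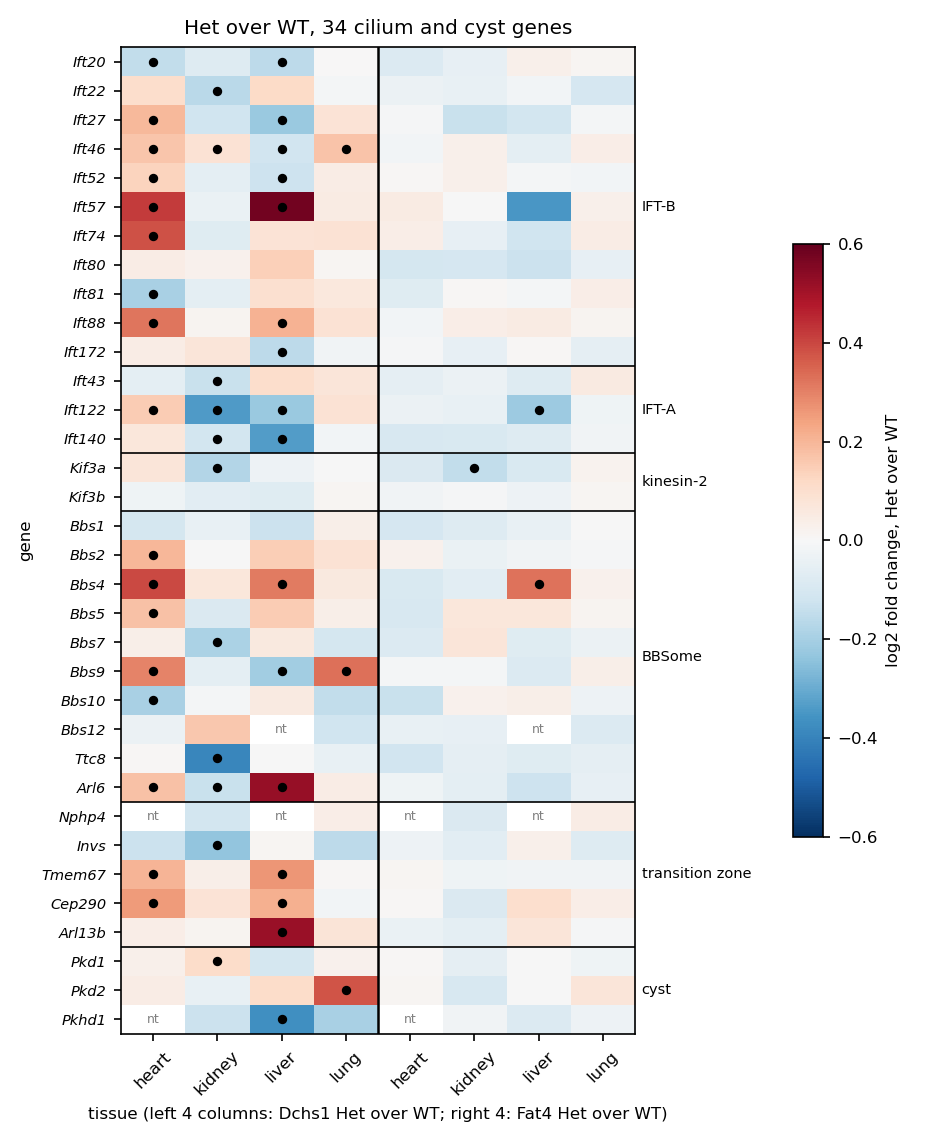
log2 fold change, Het over WT, of each gene (rows, grouped by role) in each tissue (columns), Dchs1 line left and Fat4 line right. Dots mark an adjusted p under 0.05 and nt marks genes with too few reads to test. The Dchs1 columns carry 17, 11, 16 and 3 dots for heart, kidney, liver and lung, and the Fat4 columns 0, 1, 2 and 0.

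In Dchs1 Het kidneys the balance was the other way: 9 of the 34 members were lower than in WT kidneys and 2 were higher, beside 47.2% called, 23.8% lower and 23.4% higher, among all 14142 genes. The share of members called lower was near that of all genes, and the share called higher was below it. The 3 IFT-A members were lower, with the BBSome genes Ttc8, Bbs7 and Arl6, the motor Kif3a, Ift22 and Invs. Further IFT-A subunits are counted below with the other IFT subunits. Pkd1 and Ift46 were higher. On the TPM scale (limma on log2(TPM + 1)) the balance turned: 8 members were called higher and 3 lower of 33, and 78.5% of the calls among all genes were higher, against 49.5% on the count scale. All 9 lower members stayed below 0 there, but only Ttc8, Ift122 and Invs were still called. In the longest number stretch (25 Het and 23 WT kidneys) 2 members were higher and 9 lower, with Kif3b called (adjusted p = 0.03898) and Ift140 no longer called (adjusted p = 0.136). The Ift140 call was also lost without the filter on low counts (adjusted p = 0.0702). In the 5 Het and 7 WT kidneys outside that stretch Ttc8 and Ift122 were called, both lower.

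Ift122, the IFT-A gene with its highest level in kidney, had the smallest p. It had 21.1, 26.4 and 33.3 CPM in Het kidneys, against 25.98, 32.5 and 43.8 CPM in WT kidneys. The log2 fold change was -0.34 ± 0.048 (SE, adjusted p = 2.01e-08), and 14 of 30 Het kidneys lay below the lowest WT kidney. Ttc8 showed the largest fall among the members. It had 7.75, 10.2 and 14.7 CPM in Het kidneys, against 10.4, 14.04 and 17.8 CPM in WT kidneys, a log2 fold change of -0.39 ± 0.057 (adjusted p = 5.15e-08). In 17 of 30 Het kidneys its level was below every WT kidney. Invs, a gene of infantile nephronophthisis, had 8.71, 12.3 and 16.4 CPM in Het kidneys, against 10.9, 14.4 and 18.7 CPM in WT kidneys. Its log2 fold change was -0.24 ± 0.054 (adjusted p = 2.53e-04), with overlapping groups and 27 of 30 Het kidneys below the WT median.

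The kinesin-2 motor gene Kif3a had 21.6, 27.6 and 32.4 CPM in Het kidneys, against 24.4, 31.3 and 38.8 CPM in WT kidneys, a log2 fold change of -0.18 ± 0.043 (adjusted p = 5.52e-04). Kif3b was at -0.062 ± 0.034 (adjusted p = 0.131) and did not pass. Bbs7, a BBSome subunit with the RFX site printed above, had 7.43, 9.34 and 11.4 CPM in Het kidneys, against 7.87, 10.5 and 16.2 CPM in WT kidneys, or -0.19 ± 0.047 (adjusted p = 6.78e-04). Ift22, which carries both printed sites, had 6.27, 8.02 and 10.1 CPM in Het kidneys, against 6.43, 8.64 and 10.7 CPM in WT kidneys, or -0.16 ± 0.050 (adjusted p = 0.0065). Groups overlapped widely for these 3 called genes. The other called members were Ift43 at -0.13, Arl6 at -0.13, Ift140 at -0.11, Pkd1 at 0.11 and Ift46 at 0.087. The cyst genes Pkd2, at -0.044, and Pkhd1, at -0.13, did not pass (adjusted p = 0.602 and 0.173).

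Other BBSome and trafficking genes in these kidneys gave 0 higher and 9 lower of 13, among them Rab3ip at -0.23, Tulp3, which brings receptors into the cilium, at -0.28 and Rab8a at -0.14. Other transition zone genes gave 4 higher and 8 lower of 21, with Tmem237 at -0.77. Other cyst genes gave 6 higher and 2 lower of 12, with Lrp5 at 0.22 and Dnajb11 at -0.26. Centriole and basal body genes gave 7 higher and 3 lower of 14, other IFT subunits 1 higher and 2 lower of 10, other motors 0 higher and 1 lower of 6 (Dync2li1 at -0.23), Hedgehog genes 2 higher and 3 lower of 13 and RFX and ciliogenesis regulators 0 higher and 1 lower of 6. Markers of the tubule segments differed too. Proximal tubule markers gave 0 higher and 6 lower of 8, with summed medians of 29802 TPM in Het and 49363 TPM in WT kidneys (range 19796 to 42396 and 29923 to 58758). Thick ascending limb and distal tubule markers gave 2 higher and 0 lower of 5, with 832 and 661 TPM (range 577 to 1188 and 284 to 1329), and collecting duct markers 2 higher and 3 lower of 7, with 242 and 259 TPM (range 180.1 to 366 and 117 to 397). Among other lists, leukocyte markers gave 0 higher and 3 lower of 5 (median log2 fold change -0.33), erythroid markers 0 higher and 2 lower of 5 (-0.25), cholangiocyte markers 4 higher and 1 lower of 6 (0.26) and hepatocyte markers 3 higher and 2 lower of 5 (0.63). Their part in the result was not tested.

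Dchs1 Het livers had 7 members higher and 9 lower of 32 tested, beside 49.8% of all 12526 genes called, 24.3% higher and 25.4% lower. The shares of members called higher and lower were near those of all genes. Of the 11 IFT-B members, Ift57 and Ift88 were higher and Ift20, Ift27, Ift46, Ift52 and Ift172 lower. Ift122 and Ift140 of IFT-A were lower, as were Bbs9 and Pkhd1, the bile duct cilium gene. Arl6, Bbs4 and the transition zone and membrane genes Tmem67, Cep290 and Arl13b were higher. Bbs12 and Nphp4 had too few reads to be tested, and the 16 members that did not pass lay between -0.13 and 0.15 (log2).

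Ift140, the largest IFT-A subunit, had the smallest p. Levels were 3.61, 5.86 and 7.37 CPM in Het livers, against 5.46, 7.09 and 10.01 CPM in WT livers, a log2 fold change of -0.34 ± 0.057 (SE, adjusted p = 1.91e-06). 9 of 29 Het livers lay below the lowest WT liver. Arl6 was higher, with 1.64, 2.79 and 4.51 CPM in Het livers, against 1.202, 1.91 and 4.02 CPM in WT livers and a log2 fold change of 0.52 ± 0.097 (adjusted p = 9.28e-06). Its groups overlapped, but 26 of 29 Het livers were above the WT median. Bbs4 had 3.295, 4.31 and 7.598 CPM in Het livers, against 2.57, 3.54 and 5.38 CPM in WT livers, or 0.31 ± 0.073 (adjusted p = 3.46e-04). Ift88 had 5.98, 6.89 and 9.87 CPM in Het livers, against 4.73, 5.83 and 8.81 CPM in WT livers, or 0.21 ± 0.052 (adjusted p = 7.07e-04). Both genes were also higher in Dchs1 Het hearts, where 26.1% of all genes were called higher.

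Pkhd1 had 1.02, 2.92 and 4.97 CPM in Het livers, against 1.87, 3.67 and 5.504 CPM in WT livers, a log2 fold change of -0.37 ± 0.095 (adjusted p = 9.86e-04), and 27 of 29 Het livers were below the WT median. Cholangiocyte markers, of the bile duct cells that bear cilia, gave 0 higher and 1 lower of 4 tested, with a median log2 fold change of -0.063. All 6 of them summed to medians of 17.3 TPM in Het and 24.7 TPM in WT livers (range 8.84 to 29.2 and 13.03 to 34.8). The part of these markers in the Pkhd1 difference was not tested. In whole tissue, fewer cells of a type and less RNA per cell cannot be told apart. Hepatocyte markers gave 3 higher and 2 lower of 6 and summed to 94413 and 91223 TPM (range 65016 to 110280.0 and 62590.0 to 103360.0). Endothelial markers gave 1 higher and 3 lower of 5 (median log2 fold change -0.16) and smooth muscle and pericyte markers 2 higher and 0 lower of 5 (0.41), and the part of these lists was not tested. Ift52, a core IFT-B subunit, had 19.2, 23.4 and 28.1 CPM in Het livers, against 21.1, 24.9 and 29.8 CPM in WT livers, or -0.12 ± 0.032 (adjusted p = 0.0011). Ift57 showed the largest rise at the lowest level: it had 0.445, 0.913 and 1.78 CPM in Het livers, against 0.236, 0.601 and 1.66 CPM in WT livers, a log2 fold change of 0.58 ± 0.16 (adjusted p = 0.0016), and rests on few reads per library. The other called members ran from 0.21 for Cep290 to 0.52 for Arl13b among those higher, and from -0.11 for Ift46 to -0.22 for Ift122 among those lower.

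Arl13b rested on a wide spread, with 4.69, 8.01 and 29.9 CPM in Het livers, against 3.67, 7.23 and 35.5 CPM in WT livers, and 1 WT liver was the highest of all libraries. The calls of Arl13b, Cep290, Tmem67, Ift27, Ift46 and Ift122 were lost when the longest stretch of library numbers was fitted alone (adjusted p = 0.141, 0.181, 0.0661, 0.222, 0.0661 and 0.211). In the 5 Het and 7 WT livers outside that stretch, Arl13b, Tmem67 and Ift88 were called higher and Ift122 lower, at 0.99, 0.48, 0.41 and -0.67 on the log2 scale. Among related genes in Dchs1 livers, other trafficking genes gave 5 higher and 2 lower of 13, with Arl2bp at 0.71 and Rab23 at 0.45. Other transition zone genes gave 6 higher and 3 lower of 18, with Tctn3 at 0.63. Other IFT subunits gave 0 higher and 2 lower of 10, including the IFT-B gene Cluap1 at -0.17. Other motors gave 1 higher and 1 lower of 5, other cyst genes 2 higher and 3 lower of 10, centriole and basal body genes 2 higher and 3 lower of 14, Hedgehog genes 2 higher and 1 lower of 8 and RFX and ciliogenesis regulators 0 higher and 2 lower of 5. Smo, the Hedgehog transducer that enters cilia, was at 0.40, and the co-receptor Gas1 at -0.86.

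Dchs1 Het lungs differed in 3 of the 34 members, Bbs9, Pkd2 and Ift46, all higher, beside 20% called, 9.6% higher and 10.4% lower, among all 15069 genes. Bbs9 had 24.2, 32.1 and 49.7 CPM in Het lungs, against 19.5, 26.5 and 38.99 CPM in WT lungs, a log2 fold change of 0.33 ± 0.059 (SE, adjusted p = 2.25e-05). All but 3 of 30 Het lungs were above the WT median. Pkd2, the polycystin-2 channel gene, had 78.6, 268 and 384 CPM in Het lungs, against 74.8, 204 and 315 CPM in WT lungs, or 0.38 ± 0.12 (adjusted p = 0.0153). A few libraries of each genotype were far below the rest of their group for Pkd2, and without the 9 libraries that stood apart the log2 fold change was 0.38 (adjusted p = 3.83e-05). Ift46 had 39.6, 49.8 and 75.3 CPM in Het lungs, against 35.1, 45.2 and 61.6 CPM in WT lungs, or 0.17 ± 0.057 (adjusted p = 0.0223). Groups overlapped for all 3 genes, and the 31 other members lay between -0.19 and 0.088.

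In the longest number stretch (24 Het and 24 WT lungs) 4 members were called higher and 1 lower, and none of 33 in the 6 Het and 6 WT lungs outside it, where edgeR called 6 of all genes. Without the libraries that stood apart, 4 members were called higher and 1 lower, Bbs2 joining at 0.12 and Invs at -0.18. On the TPM scale Bbs9 was the single call, and 26.1% of all calls were higher, against 47.9% on the count scale. Multiciliated cell markers gave 0 higher and 0 lower of 20, and summed to a median of 678 TPM in Het and 674 TPM in WT lungs (range 506 to 841 and 511 to 772). Leukocyte markers gave 0 higher and 4 lower of 6 (median log2 fold change -0.58), with a summed median of 7978 TPM in Het and 8116 TPM in WT lungs (range 4589 to 9534 and 4977 to 10174). Fibroblast markers gave 0 higher and 4 lower of 6 (median -0.40), with 662 TPM in Het and 747 TPM in WT lungs (range 409 to 819 and 476 to 1001). Endothelial markers gave 0 higher and 2 lower of 5, cardiomyocyte markers 0 higher and 2 lower of 7 and alveolar type 1 markers 2 higher and 1 lower of 4. Their part in the calls was not tested. Other cyst genes gave 3 higher and 0 lower of 11 (Vhl, Tsc1 and Dzip1l at 0.16, 0.18 and 0.15), other transition zone genes 3 higher and 1 lower of 21, and other trafficking genes 1 higher and 1 lower of 13. Centriole and basal body genes gave 1 higher and 1 lower of 14 (Odf2 at 0.27), Hedgehog genes 1 higher and 2 lower of 14 (Gli1 at 0.35 and Hhip at -0.41), and other IFT subunits 0 higher and 0 lower of 10. Other motors gave 0 higher and 0 lower of 7, and RFX and ciliogenesis regulators 0 higher and 0 lower of 11.

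**Figure D3:**
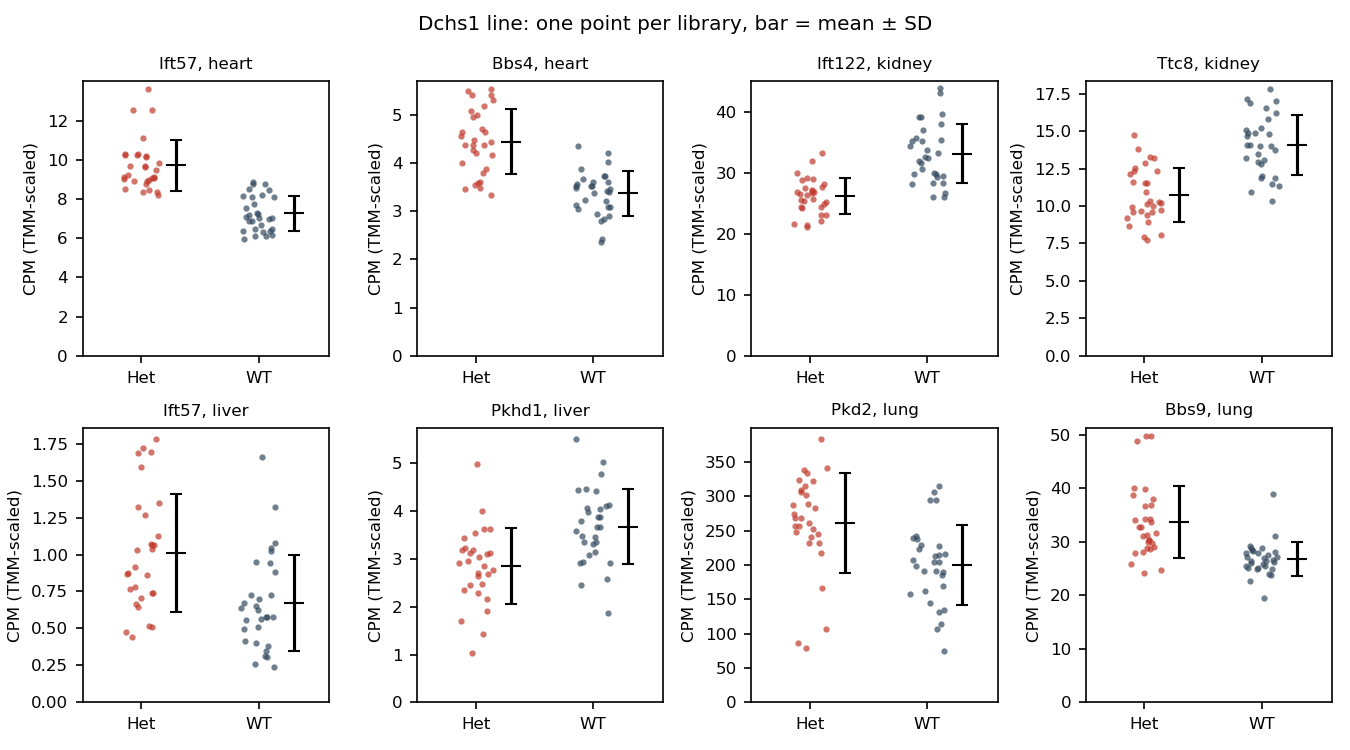
TMM-scaled CPM of 8 gene and tissue pairs of the Dchs1 line, 1 point per library, Het left and WT right, with bars for mean ± SD. In heart most Het points of Ift57 lie above the WT points, in kidney Ift122 and Ttc8 lie lower in Het, and in lung a few low libraries of both genotypes widen Pkd2.

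The Fat4 line gave few calls. In Fat4 Het hearts none of 32 members passed (edgeR, smallest adjusted p = 0.0809, for Kif3a at -0.088 ± 0.028), with 4 at an unadjusted p under 0.05, and 1.6% of all 13213 genes were called (0.969% higher and 0.628% lower). DESeq2, by contrast, called Kif3a in those hearts (log2 fold change -0.089, adjusted p = 0.0489). Fat4 Het lungs had no call among 34 members either, with 2 at an unadjusted p under 0.05 (Ift172 and Invs), 0 calls by DESeq2 and 0.136% of all 15415 genes called (0.11% higher and 0.0259% lower). The members lay between -0.10 and 0.073 (log2) in lungs and between -0.13 and 0.049 in hearts. The share of higher genes among all calls depended on the scale in this line: it was 87.1% on the TPM scale and 60.7% on the count scale in hearts, 68.1% on the TPM scale and 53.9% on the count scale in kidneys, 13.4% on the TPM scale and 50.9% on the count scale in livers and 60% on the TPM scale and 81% on the count scale in lungs.

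In Fat4 Het kidneys the motor gene Kif3a was the single call, beside 17.1% of all 14014 genes (9.21% higher and 7.87% lower). It had 21.8, 26.1 and 32.3 CPM in Het kidneys, against 23.9, 29.2 and 36.7 CPM in WT kidneys, a log2 fold change of -0.15 ± 0.037 (SE, adjusted p = 0.0041). Het and WT kidneys overlapped, with 27 of 30 Het kidneys below the WT median. Kifap3, the accessory subunit of the same motor, was lower at -0.13, whereas Kif3b was at -0.0053 ± 0.029 (adjusted p = 0.924). The other 33 members lay between -0.14 and 0.074. Kif3a was thus called lower in Het kidneys of both lines. Of all genes, 23.8% were called lower in Dchs1 and 7.87% in Fat4 Het kidneys, and their overlap was not counted. The Fat4 call of Kif3a was lost in the 6 Het and 6 WT libraries outside the longest number stretch (edgeR, log2 fold change -0.15, adjusted p = 0.999). Proximal tubule markers there gave 1 higher and 0 lower of 8, with 52478 TPM in Het and 49083 TPM in WT kidneys, and distal tubule markers 0 higher and 2 lower of 5. Endothelial markers gave 0 higher and 4 lower of 5 (median log2 fold change -0.12), with 176 TPM in Het and 190.4 TPM in WT kidneys (range 148 to 215 and 160.0 to 246), and collecting duct markers 1 higher and 3 lower of 7. The part of these markers was not tested.

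In Fat4 Het livers Bbs4 was higher and Ift122 lower, 2 of 32 members beside 7.15% of all 12484 genes (3.64% higher and 3.51% lower). Bbs4 had 2.88, 4.26 and 5.91 CPM in Het livers, against 2.56, 3.41 and 4.31 CPM in WT livers, a log2 fold change of 0.33 ± 0.063 (SE, adjusted p = 2.46e-04). 13 of 30 Het livers lay above the highest WT liver. Ift122 had 1.502, 2.72 and 3.69 CPM in Het livers, against 2.21, 3.14 and 4.74 CPM in WT livers, or -0.22 ± 0.067 (adjusted p = 0.0351), with 24 of 30 Het livers below the WT median. On the TPM scale both stayed called, and Ift74 was called lower. The Ift122 call was lost without the filter on low counts (adjusted p = 0.0509). Both genes were called in the same direction in Dchs1 Het livers, at 0.31 and -0.22, where 49.8% of all genes were called. The Ift122 call of the Dchs1 livers was lost when their longest stretch of library numbers was fitted alone. Ift57 was at -0.35 ± 0.15 in Fat4 livers and did not pass (adjusted p = 0.138), and the difference from its rise in Dchs1 livers is tested below. The remaining members lay between -0.13, of Ift80, and 0.10. Bbs12 and Nphp4 in livers, and Nphp4 and Pkhd1 in hearts, could not be tested in this line either.

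Related genes of the Fat4 line also gave few calls. In hearts, Rab3ip was at 0.12 (1 of 13 other trafficking genes) and Rpgrip1l at -0.29 (1 of 21 other transition zone genes). In kidneys, other transition zone genes gave 2 higher and 1 lower of 21, with Ahi1 at -0.14, and other cyst genes 0 higher and 1 lower of 12, Umod at -0.28. In livers, other transition zone genes gave 1 higher and 1 lower of 16, other IFT subunits 0 higher and 1 lower of 10 with Cluap1 at -0.19, and other cyst genes 1 higher and 0 lower of 10 with Dnajb11 at 0.28. The Hedgehog gene Gas1 was lower in kidneys and livers, at -0.14 and -0.48, and Rfx1, an RFX factor, lower in kidneys at -0.14. Unc119b in kidneys, at 0.065, and Mkks in livers, at -0.12, were the single calls among other trafficking genes there. The centriole list had no call in these 3 tissues, and none of the 8 lists had one in Fat4 lungs. Bbs12, Bbs7 and Ift80 lie on the chromosome of Fat4, at 1.56, 2.27 and 29.9 Mb from it, and none was called in the Fat4 line, while no member lies on the chromosome of Dchs1.

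Whether the Het effect differed between lines was tested directly as the Dchs1 minus Fat4 difference in log2 fold change. It differed in heart for 15 of 33 members, beside 25.5% of all genes, and for 14 of these the Dchs1 effect was the more positive, Ift81 being the exception. Ift57, at 0.36 ± 0.060 (SE, adjusted p = 1.91e-06), had the smallest p and Bbs4 the largest difference, at 0.48 ± 0.081 (adjusted p = 2.35e-06), where Het over WT was 0.40 for Dchs1 and -0.093 for Fat4 hearts. In kidney 6 of 34 members differed, beside 33.5% of all genes, led by Ttc8 at -0.33 ± 0.069 (adjusted p = 6.05e-05). In liver 5 of 32 differed, beside 23.6%, with Ift57 at 0.95 ± 0.22 (adjusted p = 4.51e-04) and Arl6 at 0.66 ± 0.12 (adjusted p = 2.16e-05). In lung Bbs9 was the only one of 34, at 0.29 ± 0.069 (adjusted p = 0.0049), beside 5%, and limma on log2(TPM + 1) called none.

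Between tissues of the Dchs1 line the Het effect differed for 25 of 34 members, beside 52.2% of all genes. The fit took libraries of different tissues as independent, although some may share a mouse. Bbs9 had the smallest adjusted p (9.41e-14), with log2 fold changes of 0.30, -0.057, -0.21 and 0.33 in heart, kidney, liver and lung. Ift122 had 0.15, -0.34, -0.22 and 0.088 in the same order (adjusted p = 1.28e-09). Arl6 had 0.18, -0.13, 0.52 and 0.045 (adjusted p = 5.27e-09). Each of these genes was called in both directions among the Dchs1 tissues. In the Fat4 line the effect differed between tissues for Bbs4 alone of 34 members (adjusted p = 6.43e-06), beside 7.13% of all genes, at -0.093, -0.061, 0.33 and 0.025.

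In the lung, where airway cells carry motile cilia, the levels of the members were set against those of multiciliated cell markers among WT libraries. The mean log2 CPM of 20 such markers (Foxj1, Dnah5, Rsph1 and others) was used as a score, and slopes are log2 changes per SD of that score over 30 WT lungs. The score's SD was 0.23 (log2) for the Dchs1 WT lungs and 0.17 for the Fat4 WT lungs. In the Dchs1 line 12 of 33 members tested had a called slope, all 12 positive, beside 12.8% of all genes called and 6.38% called positive. In the Fat4 line 24 of 33 were called, where 47.7% of all genes were, and 22 of them were positive, beside 24.1%. All 12 of the Dchs1 line were also called in the Fat4 line: Ift46, Ift57, Ift74, Ift81, Ift88, Ift122, Bbs2, Bbs4, Bbs5, Bbs9, Nphp4 and Cep290.

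The Ift74 and Ift81 pair had the steepest slopes in the Dchs1 line, at 0.26 ± 0.051 and 0.21 ± 0.030 (SE, adjusted p = 8.46e-04 and 2.14e-05), and 0.14 ± 0.020 and 0.11 ± 0.018 in the Fat4 line (adjusted p = 3.35e-06 and 1.61e-05). Ift88 had 0.16 ± 0.031 and 0.11 ± 0.014 (adjusted p = 7.86e-04 and 9.21e-07). The polycystin genes went the other way in the Fat4 line, Pkd1 at -0.18 ± 0.033 and Pkd2 at -0.13 ± 0.034 (adjusted p = 5.52e-05 and 0.0017), and in the Dchs1 line had -0.13 ± 0.065 and 0.025 ± 0.076 without a call. The 9 members Ift80, Ift172, Kif3b, Bbs1, Bbs7, Bbs10, Bbs12, Invs and Arl13b had no called slope in either line. Over the 33 members tested the median slope was 0.101 for Dchs1 and 0.0648 for Fat4 lungs, beside 0.0055 and 0.0041 over all genes. The Dchs1 count depended on the libraries: it was 7 without the 2 libraries farthest from the median score, 23 (22 positive) among the 24 WT lungs of the longest number stretch, and 20 without the WT libraries that stood apart. The count over all genes moved with it, to 1073 of 14470, 3709 of 14591 and 3863 of 14600 genes in the same 3 settings, against 1859 of 14525 with all libraries. In the Fat4 line the calls of Cep290 and Ift52 were lost with the size factors of DESeq2 (adjusted p = 0.0665 and 0.0742) and without the 2 libraries farthest from the median score (adjusted p = 0.156 and 0.0806). The remaining 6 Dchs1 WT lungs were too few for a fit of their own, and the Fat4 lungs formed 1 stretch.

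**Figure D4:**
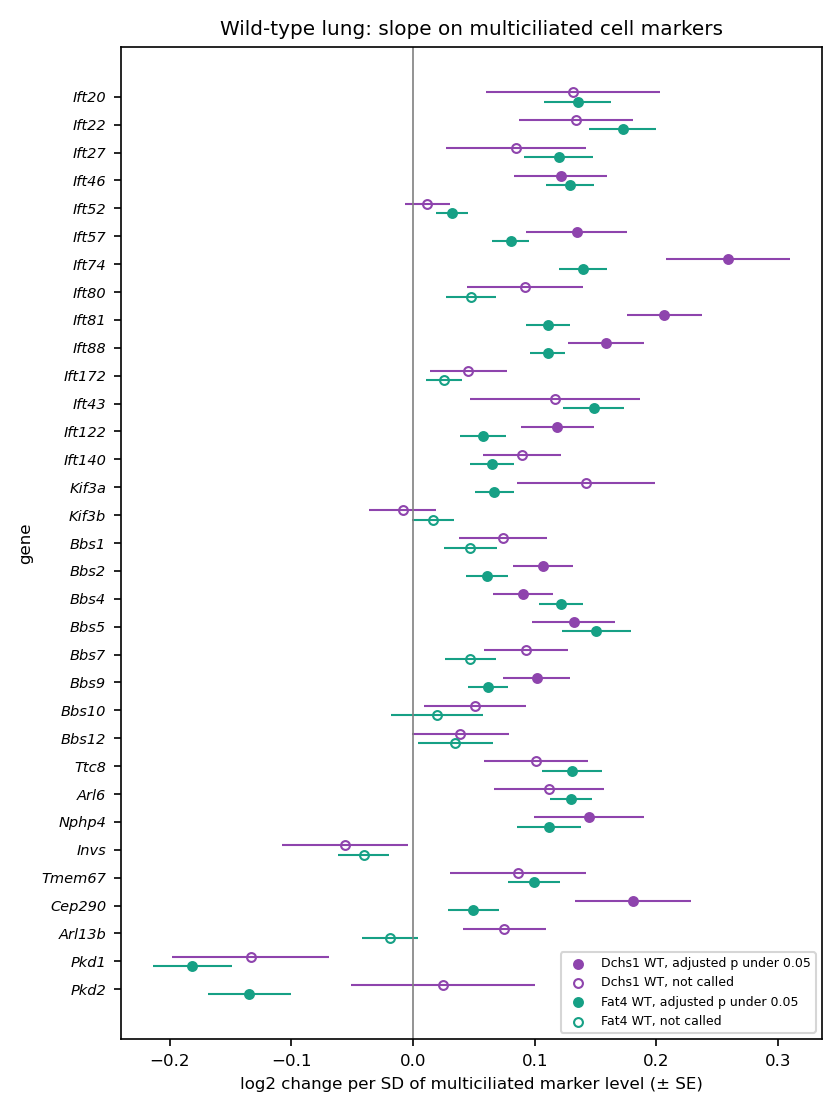
Slope of each member on the multiciliated marker score among WT lungs, in log2 units per SD of the score with bars of ± SE, for the Dchs1 line (n = 30) and the Fat4 line (n = 30); filled points passed an adjusted p under 0.05. All called slopes are positive except Pkd1 and Pkd2 in the Fat4 line.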

How the data were processed

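Polyadenylated RNA libraries of heart, kidney, liver and lung from Het and WT mice of the Dchs1 and Fat4 lines were sequenced by the authors as single-end reads with a strand-specific kit, per the labels' protocols. The authors deposited estimated counts (15.5% and 15.7% of values not whole) and TPM per gene, 1 table of each per line, indexed by NCBI gene ID per the file headers. GRCm38, bcl2fastq 2.17 and FastQC are named in the submitters' processing notes, while an aligner or counter is not given in the sources used here. Of 24475 gene IDs 24375 had a symbol in the RefSeq table (GRCm38.p6).

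Counts were rounded and fitted with edgeR 4.0.16 (R 4.3.3): TMM, a filter on low counts (filterByExpr, minimum count 10, minimum total 15), the quasi-likelihood F test and Benjamini-Hochberg adjustment over all genes tested, at 0.05. Each Het against WT comparison had its own fit of the libraries of that line and tissue, so CPM values of different comparisons are on their own scales. WT tissues were fitted together within a line, differences between lines and tissues as interactions, and lung slopes over WT libraries. Fits over several tissues took all libraries as independent, and the labels do not say which came from the same mouse. SEs were derived from the log2 fold change and its F value. TPM served for levels per length and as an alternative (limma 3.58.1 on log2(TPM + 1) or log2(TPM + 0.1), genes of at least 1 TPM in 20 libraries), and a fold change there understates the change of low genes. Other alternatives were DESeq2 1.42.0, its size factors in edgeR, no filter and the number stretch as covariate. The longest stretch was also fitted alone, and the libraries of all other stretches together. A last alternative left out libraries that stood apart. Their median rank correlation with the other libraries of that line and tissue, both genotypes together, lay over 5 median absolute deviations below the median. In the fits of WT tissues, WT libraries alone were compared. Steps were tested on simulated data.

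No pair of libraries of a group agreed within sampling noise (lowest chi-square per gene 3.48). Library numbers are unique and pair no samples. The members and gene lists were chosen with earlier results of these data known. Named per comparison are called members, in full for the 6 with the smallest p, and up to 3 called genes of each related list. Of 247 list entries 245 matched a row. Sampling noise at 10720364 reads or more per library is largest for Pkhd1, Nphp4 and Bbs12, which had under 1 TPM in several tissues.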

Additional observations from a re-analysis of the deposited data

Results flagged for a closer look

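The Het effect of several genes differed between the lines or between tissues by a direct test of that difference (edgeR quasi-likelihood, Benjamini-Hochberg over all genes). The values are differences of log2 fold changes, Dchs1 line minus Fat4 line. In heart 15 members differed, led by Ift57 at 0.36, Bbs4 at 0.48 and Bbs9 at 0.30. In kidney 6 members differed, led by Ttc8 at -0.33, Ift122 at -0.29 and Bbs7 at -0.25. In liver 5 members differed, led by Arl6 at 0.66, Ift57 at 0.95 and Ift80 at 0.29, and in lung 1 member, Bbs9, at 0.29. The background shares of all genes that differed were 25.5%, 33.5%, 23.6% and 5% in heart, kidney, liver and lung. Members differed more often than that in heart and less often in kidney, liver and lung.

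Between the tissues of the Dchs1 line the Het effect differed for 25 of 34 members, beside 52.2% of all genes. The smallest adjusted p values were 9.41e-14 for Bbs9, 1.28e-09 for Ift122 and 5.27e-09 for Arl6 (edgeR). Between the tissues of the Fat4 line the Het effect differed for 1 of 34 members, a smaller share than the 7.13% of all genes. That member was Bbs4 (adjusted p = 6.43e-06, edgeR).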

How the results depend on the processing

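Of the 50 member calls over the 8 Het against WT comparisons, 42 held under every count setting that used most libraries: DESeq2, its size factors in edgeR, no filter, the number stretch as covariate, the longest stretch alone, and leaving out libraries that stood apart where there were any. The 8 others were Arl13b, Cep290, Ift122, Ift27, Ift46 and Tmem67 in Dchs1 livers and Ift140 in Dchs1 kidneys, lost in the longest stretch alone, and Ift122 in Fat4 livers, lost without the filter. Ift140 was also lost without the filter. On TPM 39 of the 48 calls with a value held with a pseudocount of 1 and 38 with 0.1.

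In the 12 libraries outside the longest stretch fewer calls were made, and the part of the smaller number of libraries was not tested. Members called fell to 6 in Dchs1 heart, 2 in kidney, 4 in liver and 0 in lung, and to 0 in Fat4 kidney. Genes called fell to 1067, 1511, 1987 and 6 in the Dchs1 tissues and 2 each in Fat4 heart and kidney. Pkd1 in Dchs1 kidneys turned to -0.049 (log2) there, without passing. The Dchs1 lung count of members was 1 with either pseudocount on TPM, 6 with the stretch as covariate, and 5 in the longest stretch or without the libraries that stood apart, and its genes 4711 with the covariate and 4623 in the longest stretch. Fat4 heart members were 1 with DESeq2, with the covariate and without libraries that stood apart, and genes 328 with DESeq2, 95 without the filter, 132 and 131 on TPM, 351 with the covariate and 117 in the longest stretch. Fat4 kidney members were 3 with the covariate and 2 in the longest stretch, and genes 1453 and 1451 on TPM. Fat4 liver members were 1 without the filter. Fat4 lung genes were 61 with DESeq2, 10 and 10 on TPM, and 8 without libraries that stood apart. In Fat4 tissues the main numbers of genes were 211 in heart, 2393 in kidney and 21 in lung.

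Tissue calls on TPM with pseudocounts of 1 and 0.1 were, in the Dchs1 line, 31 and 32 for heart over lung, 21 and 24 for kidney over lung, and 18 with 0.1 for heart over kidney. In the Fat4 line they were 17 and 19 for heart over kidney, 31 and 32 for heart over lung, 15 and 20 for kidney over lung, 10 with 1 for heart over liver and 31 with 0.1 for lung over liver. On TPM with a pseudocount of 1 no member differed between lines in lung and 2 differed between Fat4 tissues. That is 0 by limma, where edgeR called 1. The Dchs1 lung slope count was 7, 23 and 20 without the 2 farthest libraries, in the longest stretch and without libraries that stood apart, the last 2 settings chosen after seeing the data. The cause of these shifts was not tested.

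Of 208 alternative values for counts, 154 stayed within 1.5 times the main count and 54 did not. Of 2113 for single members 2000 kept their side of the threshold, 63 lost a call, 49 gained one and 1 called member turned. Members called in neither setting were counted as kept even where their direction changed. In Dchs1 kidney 10 of 34 members lay above 0 in the main fit, and 22 of 33 on TPM with a pseudocount of 1. The libraries outside the longest stretch could not be fitted for Fat4 liver and lung, and no library stood apart in Dchs1 heart, Dchs1 kidney or Fat4 kidney. No paired analysis was possible because the library numbers are unique to each library. Depth limits Nphp4 in heart and liver and Bbs12 in liver, which were not tested. Pkhd1 was not tested in heart either, where it had 0 reads in every library.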
